A study of Homo sapiens with 12 samples.

Results

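The Schlafen genes analysed here were SLFN5, SLFN11, SLFN12, SLFN12L and SLFN13, 5 of the 60099 genes in the deposited table. They were found by gene symbol. The family was chosen by its measured values in these samples: the untreated level in each set of samples, the change with the dose of IFNα, and the SLFN11 response, which differed between the sets. The levels and changes of the 5 genes are therefore given as a description, with no p-value, and how many of them the fit over all genes called is given once, only beside the share of all genes called.

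RNA of Cal27 and HN30, established lines of head and neck squamous cell carcinoma (HNSCC), had been sequenced after 24 h without IFNα or with 20 or 200 ng/ml IFNα, a type I interferon. The 12 samples carried the letters A to F with 2 replicates each. Letters A and D were untreated controls, letters B and E received 20 ng/ml, and letters C and F received 200 ng/ml. Letters A to C formed 1 line set and letters D to F the other. Which line a set came from is not given by the labels, and they are named A-C and D-F here. Each set was 1 cell line, so a difference between the sets is a difference between those lines and not between classes of tumor. The estimated counts summed to between 10517448 and 16056734 per sample and were lowest at 200 ng/ml in A-C, while both D controls exceeded all E and F samples.

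Schlafen proteins are a mammalian family, and interferon induces several of them. SLFN11 binds stalled replication forks, blocks their restart and makes cells sensitive to drugs that damage DNA, and it also lowers protein synthesis by acting on tRNA. SLFN13 is a nuclease that cuts tRNA and rRNA. SLFN12 is the partner of the phosphodiesterase PDE3A in the killing of tumor cells by small molecules that glue both proteins together, and cuts tRNA as well. SLFN5 is a nuclear family member whose gene is switched on by interferon. SLFN5, SLFN11 and SLFN13 are long forms with a helicase-like part, which SLFN12 lacks. Loss of SLFN11 expression is common in tumor cell lines and has been tied to DNA methylation of its promoter and to repressive chromatin.

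The 5 genes lie side by side on chromosome 17 (build GRCh38.p10, coordinates of the deposited table). SLFN5 (ENSG00000166750) is on the plus strand at chr17:35243036-35273655. The others are on the minus strand, SLFN11 (ENSG00000172716) at chr17:35350305-35373701, SLFN12 (ENSG00000172123) at chr17:35411060-35433283, SLFN13 (ENSG00000154760) at chr17:35435096-35448837 and SLFN12L (ENSG00000205045) at chr17:35464249-35537861. The promoters of 3 of the 5 members, SLFN11, SLFN12 and SLFN12L, were found in the RefSeq promoter table (build GRCh38.p14), which holds 250 bases before and 50 bases after each start. They are shown because these genes were silent or nearly so in D-F, and because CpG sites, the letters that DNA methylation acts on, differ in number between them. Capitals mark every CpG. The windows were chr17:35373572-35373871 for SLFN11, chr17:35433125-35433424 for SLFN12 and chr17:35537629-35537928 for SLFN12L, all on the minus strand and written 5′ to 3′.
SLFN11: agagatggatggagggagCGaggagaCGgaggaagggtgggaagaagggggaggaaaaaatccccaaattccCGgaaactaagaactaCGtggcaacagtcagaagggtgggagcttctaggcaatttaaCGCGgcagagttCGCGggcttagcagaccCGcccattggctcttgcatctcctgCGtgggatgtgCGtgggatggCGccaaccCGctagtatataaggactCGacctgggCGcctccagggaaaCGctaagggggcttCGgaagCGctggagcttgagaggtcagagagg
SLFN12: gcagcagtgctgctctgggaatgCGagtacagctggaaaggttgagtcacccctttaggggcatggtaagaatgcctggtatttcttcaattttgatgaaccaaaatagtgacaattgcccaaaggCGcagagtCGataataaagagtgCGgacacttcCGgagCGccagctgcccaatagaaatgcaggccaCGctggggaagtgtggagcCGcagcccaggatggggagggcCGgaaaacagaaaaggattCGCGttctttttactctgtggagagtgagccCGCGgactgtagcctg
SLFN12L: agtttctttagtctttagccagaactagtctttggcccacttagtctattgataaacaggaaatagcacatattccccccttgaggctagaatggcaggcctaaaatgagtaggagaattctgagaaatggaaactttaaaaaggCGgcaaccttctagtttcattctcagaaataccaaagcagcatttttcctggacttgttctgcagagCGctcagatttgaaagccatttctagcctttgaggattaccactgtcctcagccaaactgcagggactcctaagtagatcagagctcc
The SLFN11 window held 18 CpG sites at a GC content of 58.0%, more sites than 55.5% of the 35116 promoters in the table. The SLFN12 window held 13 CpG sites at 53.3% GC, more than 48.3% of promoters, and the SLFN12L window held 2 sites at 43.0% GC, more than 11% of promoters. The median promoter held 14. The SLFN12L window covers the start of SLFN12L-202, a form with at most 6.64% of SLFN12L TPM in any A-C sample. SLFN12L-201, with 67.8% to 100% of that TPM, starts at chr17:35487857, outside the window. The letters of this window therefore do not describe the start of the main form. SLFN12-201, with 23.1% to 45.0% of SLFN12 TPM in A-C, starts at chr17:35432524, outside the SLFN12 window. SLFN12-204, with 13.0% to 47.1%, starts at chr17:35433145, inside it. Both strands of the windows were searched for the core of the interferon-stimulated response element (GAAA, any 2 bases, GAAA) that interferon-activated factors bind, and for the GAS element TTCNNNGAA, a motif of the STAT family. SLFN12L held the interferon-stimulated core as GAAATGGAAA at -126 to -117 from its start, which 3.57% of promoters hold. SLFN12L also held the GAS letters as TTCTGAGAA at -132 to -124, overlapping the core, and as TTCTCAGAA at -86 to -78. SLFN11 held the GAS letters once, as TTCCCGGAA at -182 to -174, and the SLFN12 window held neither motif. GAS letters occur in 7.66% of promoters, and a match of letters is not a measurement of binding.

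The members fell into a gene expressed in both line sets and 4 genes at or near 0 in D-F. SLFN5 was expressed in all 12 samples, from 24.8 to 41.5 TPM (a level scaled for transcript length and depth) in A-C and from 17 to 50.6 TPM in D-F. SLFN11, SLFN12, SLFN13 and SLFN12L were counted in all 6 samples of A-C, and their summed counts over the 6 samples of D-F were 18, 13, 0 and 1. All 5 genes passed the filter on low counts, 4 of them through A-C alone. In this bulk RNA, fewer cells with a transcript and less of it per cell cannot be told apart.

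**Figure D1:**
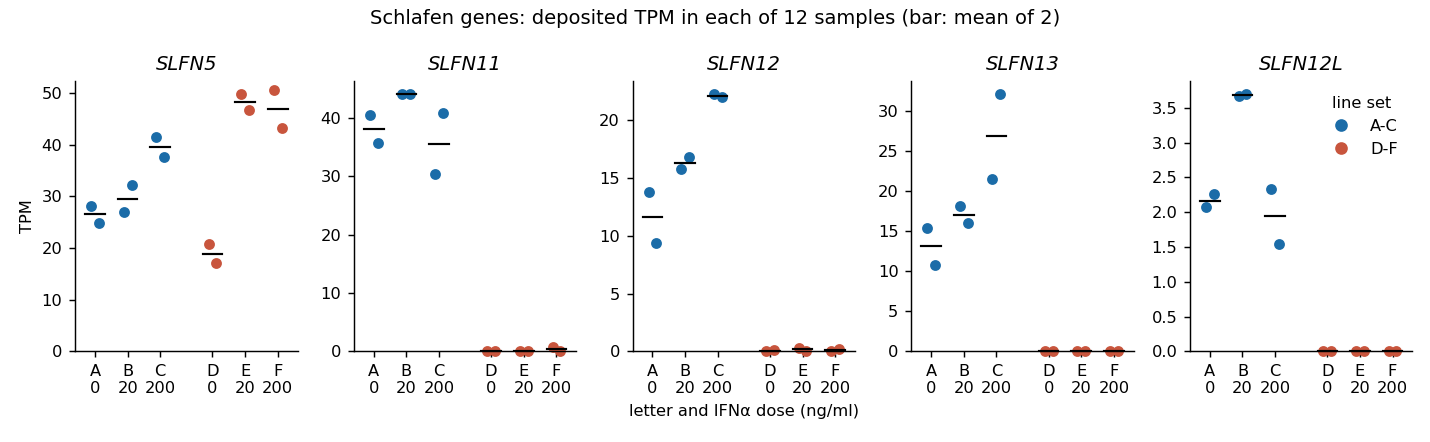
Deposited TPM (vertical axes, each starting at 0 with its own range) of the 5 Schlafen genes in each of the 12 samples by letter and IFNα dose, with points for samples and bars for the mean of 2 replicates. At the high dose SLFN5 lay above the untreated samples of either set, and the other 4 genes lay near 0 in D-F.

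SLFN11, the fork-binding member, was the most abundant family member in untreated A-C cells. Its level in A-C was 40.4 and 35.7 TPM in the controls, 44.1 and 44.0 TPM at 20 ng/ml, and 30.3 and 40.9 TPM at 200 ng/ml. The samples at 200 ng/ml overlapped the controls. In D-F it was listed at 0 in both controls, at 0.0615 and 0.112 TPM at 20 ng/ml, and at 0.726 and 0.111 TPM at 200 ng/ml. Every sample of D-F lay below every sample of A-C.

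These D-F levels rest on few counts. SLFN11 had 0 and 0 counts in D, 2 and 4 in E, and 8 and 4 in F, against 926 and 1168 in A, 943 and 1050 in B, and 577 and 782 in C. Counts were pooled over both replicates and scaled, as CPM, to the library totals adjusted by TMM factors. SLFN11 was at 75.1 CPM in A (95% exact Poisson interval 71.9 to 78.3), 75.3 in B (72.0 to 78.7) and 65.1 in C (61.7 to 68.7). It was at 0 in D, where a count of 0 allows up to 0.121 CPM at the same interval, at 0.246 in E (0.0902 to 0.535) and at 0.492 in F (0.254 to 0.86). Such intervals cover counting error only. Untreated A exceeded untreated D at least 382-fold, with D taken at the floor of 3 counts per library. The ratio of A-C to D-F was 310 at 20 ng/ml (140 to 836, counting interval) and 133 at 200 ng/ml (75.5 to 257). With D at the same floor, the ratio of F to D for SLFN11 was 2.52. It rests on 12 counts in F, whose counting error is not included, so it is no lower bound.

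The dose response of SLFN11 was thus a step from 0 to 12 summed counts in D-F, beside log2 changes in A-C of 0.01 (SE 0.21) at 20 ng/ml and -0.19 (SE 0.21) at 200 ng/ml. Sample F1 carried 8 of the 12 counts. In F1, 0.55 of the 0.726 TPM belonged to the retained-intron transcript SLFN11-209 and 0.18 TPM to the coding transcript SLFN11-202. Without F1, 4 counts remained in F.

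**Figure D2:**
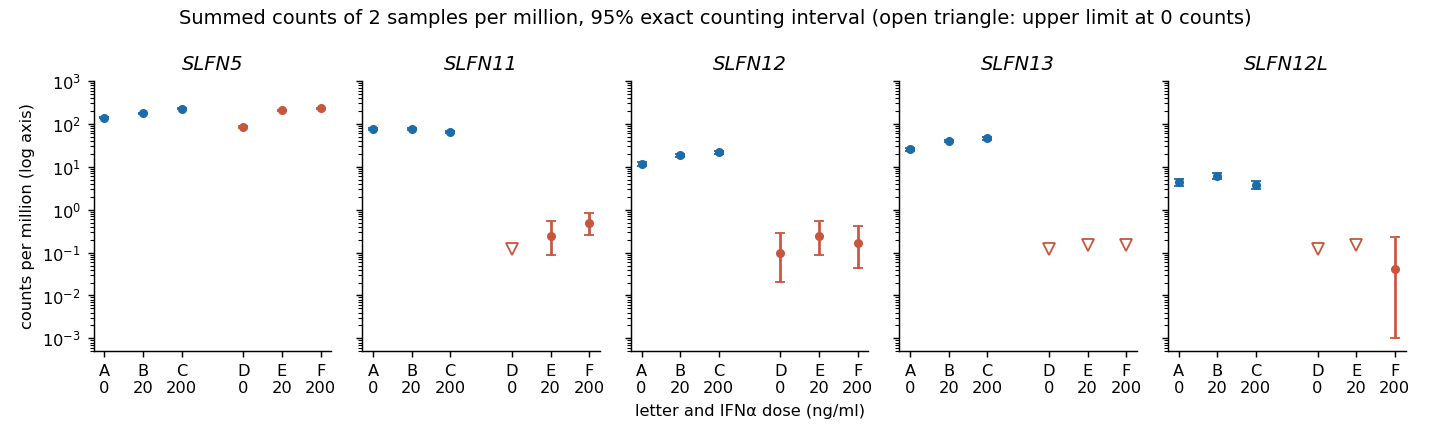
CPM of the 5 genes (vertical axis on a log scale) from the summed counts of 2 replicates by letter and dose, with bars for the 95% exact counting interval. Open triangles mark the upper limit where both samples had 0 counts. SLFN11 in D-F moved from 0 to 0.492 CPM, far below the 65.1 to 75.3 of A-C.

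SLFN5, the nuclear member, had between 1240 and 2883 counts in every sample of both line sets. In A-C it stood at 28.2 and 24.8 TPM in the controls, 26.9 and 32.1 TPM at 20 ng/ml, and 41.5 and 37.5 TPM at 200 ng/ml. In D-F it stood at 20.7 and 17 TPM in the controls, 49.8 and 46.6 TPM at 20 ng/ml, and 50.6 and 43.1 TPM at 200 ng/ml. Both doses lay above the controls in D-F, and the high dose did so in A-C. On the count scale (CPM scaled with TMM factors) the treated samples exceeded both controls at each dose in each set.

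The SLFN5 log2 fold change was 0.35 (SE 0.09) at 20 ng/ml and 0.69 (SE 0.09) at 200 ng/ml in A-C. In D-F it was 1.3 (SE 0.09) and 1.46 (SE 0.09), or 2.46-fold and 2.75-fold. The response in D-F exceeded that in A-C by 0.95 (SE 0.13) at the low dose and by 0.77 (SE 0.13) at the high dose on the log2 scale. The untreated level was lower in D than in A, by a ratio of A to D of 1.65 in CPM, and the ratios at 20 and 200 ng/ml were 0.855 and 0.971. SLFN5 was thus lower in D-F before treatment, higher in E than in B, and at overlapping CPM intervals in C and F. In TPM both F samples lay above both C samples. The D-F step from 20 to 200 ng/ml was small, from 208 CPM (95% counting interval 202 to 214) to 232 (226 to 239), while A-C moved from 178 (173 to 184) to 226 (220 to 233).

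SLFN12, the PDE3A partner, was at 13.8 and 9.41 TPM in the A controls, 15.8 and 16.8 TPM in B, and 22.3 and 22.0 TPM in C. All treated samples of A-C lay above both controls. Its log2 change was 0.64 (SE 0.51) at 20 ng/ml and 0.89 (SE 0.51) at 200 ng/ml in the fit of all 12 samples. A fit of A-C alone gave 0.66 (SE 0.17) and 0.90 (SE 0.17). In D-F the SLFN12 counts were 0 and 3 in D, 6 and 0 in E, and 0 and 4 in F, with no order by dose. Untreated A exceeded D by a ratio of 121 (40.2 to 578, counting interval on 3 counts in D), and the ratios at 20 and 200 ng/ml were 72.1 (34.1 to 205) and 134 (51.7 to 491).

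SLFN13, the tRNA and rRNA nuclease, was at 15.4 and 10.8 TPM in A, 18.1 and 16.0 TPM in B, and 21.5 and 32.1 TPM in C. The treated samples of A-C again lay above both controls. The log2 change was 0.65 (SE 0.20) at 20 ng/ml and 0.86 (SE 0.20) at 200 ng/ml, and 0.62 at the high dose without C2. SLFN13 had 0 counts in every sample of D-F. A-C exceeded D-F at least 130-fold without IFNα, at least 163-fold at 20 ng/ml and at least 189-fold at 200 ng/ml, on the floor of 3 counts per library.

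SLFN12L, the member next to SLFN13 and the least studied, was the scarcest. It was at 2.07 and 2.26 TPM in A, 3.67 and 3.70 TPM in B, and 2.34 and 1.54 TPM in C. The low dose lay above the controls and the high dose on both sides of them. The log2 change in A-C was 0.47 (SE 0.40) at 20 ng/ml and -0.22 (SE 0.41) at 200 ng/ml, on 26 to 94 counts per sample. In D-F a single count, in F2, was recorded over 6 samples. A exceeded D at least 22.1-fold and B exceeded E at least 24.5-fold. The ratio of C to F was 92.0, with a counting interval of 16.1 to 3690 on that 1 count.

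TPM allows the genes to be ranked within A-C. In A the order was SLFN11 (38 ± 3.32 TPM, SD, n = 2), SLFN5 (26.5 ± 2.40), SLFN13 (13.1 ± 3.25), SLFN12 (11.6 ± 3.10) and SLFN12L (2.17 ± 0.134). The order was the same in B. In C SLFN5 (39.5 ± 2.83 TPM) came before SLFN11 (35.6 ± 7.50), and the replicates of the pair overlapped. SLFN13 and SLFN12 overlapped in A, B and C, so their order does not exceed the spread between replicates.

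The number of members called was set beside the share of all 19944 tested genes called, by edgeR's quasi-likelihood fit with Benjamini-Hochberg adjustment (a 2-fold change and an adjusted p of at most 0.05). In A-C, 0 of the 5 members were called at 200 ng/ml, where 2.18% of all genes were, and 0 at 20 ng/ml, where 0.712% were. In D-F, 2 members (SLFN5 and SLFN11) were called at 200 ng/ml, beside 2.09% of all genes, and 1 (SLFN5) at 20 ng/ml, beside 1.41%. The response differed between the sets for 1 member (SLFN11) at 200 ng/ml, beside 0.998% of all genes, and for 0 at 20 ng/ml, beside 0.231%. Between untreated D and A, 4 members were called lower, beside 11% of all genes called lower and 26.6% called in either direction. The choice of the family used these contrasts, and 4 of the 5 passed the filter through A-C alone, so nothing is read from these counts. Some of them also turn on single samples. SLFN11 was not called in D-F without D1, D2 or F1 or with a replicate block, nor for the difference in 11 of 16 alternatives (leaving out any sample but C1 or C2, and the replicate block). Leaving out C1 added SLFN13 at 200 ng/ml in A-C, and leaving out A2 added SLFN5 for the difference at 20 ng/ml.

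Which genes around the cluster shared the split was examined in the 500 kb on both sides of the outermost members. This stretch held 72 other named genes, and 23 of them passed the filter. None of the 23 was called by edgeR in the 4 IFNα responses or the differences between the sets, where between 1 and 5 had an unadjusted p under 0.05. DESeq2 called 1, AC060766.7 at 200 ng/ml in A-C. Between untreated D and A, 6 of the 23 were called lower and 0 higher. All 6 passed the filter on low counts through A-C alone, so they could only be called lower. Of all tested genes, 11% were called lower and 15.7% higher in this contrast.

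Of those 6 neighbours, 5 were short transcribed rows on the minus strand inside the cluster, AC060766.1, AC060766.4, AC060766.5 and AC060766.7 between SLFN11 and SLFN12, and AC015911.8 within the span of SLFN12L. Some of these rows overlap each other or SLFN12L on the same strand, so their reads may be shared. Because the 6 passed the filter through A-C alone, their p-values add nothing to the description of the split. AC060766.1 (chr17:35409602-35410228) had 66 and 50 counts in A, 76 and 76 in B, and 96 and 108 in C, and a total of 4 counts over all 6 samples of D-F (edgeR quasi-likelihood test, D against A, adjusted p = 0.000409). AC060766.7 had 11 and 34 counts in A and 53 to 78 in B and C, with 0 in every D-F sample (adjusted p = 0.00202). AC060766.4 (10 to 23 counts per A-C sample, adjusted p = 0.00393) and AC015911.8 (4 to 15 counts, adjusted p = 0.00996) were also at 0 throughout D-F. AC060766.5 had 22 to 68 counts in A-C and at most 3 in D-F (adjusted p = 0.00554). AC015849.5, the 6th, lies beyond TAF15 and kept up to 4 counts in the D-F samples (adjusted p = 0.0186).

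The rows near 0 in D-F thus lay side by side over 187.6 kb, from the far edge of SLFN11 to the far edge of SLFN12L, an interval set after the values were seen. It held 17 rows, 4 members and 13 others, and their counts summed to between 1550 and 2193 per sample in A-C and between 0 and 12 per sample in D-F. Of the 13 others, only 6 exceeded 3 counts in any A-C sample and 4 had 0 counts in all samples. Of these 6, 5 exceeded 3 counts in every A-C sample, and a split could be seen in those 5 alone. The other row, E2F3P1, had 4 counts in B1 and 0 in all other samples. The far edge of SLFN12L is that of SLFN12L-202, at most 0.15 TPM in A-C. The main form SLFN12L-201 starts at chr17:35487857, and the rows inside hold few counts beyond that point. An unnamed assembled locus on the plus strand that overlaps SLFN12L and reaches past it (chr17:35497284-35570665) had 23 to 71 counts per sample in A-C and 30 to 76 in D-F. Between this interval and SLFN5 on the one side and LINC02001 on the other, the 7 named rows had at most 2 counts in any sample, so the edges of the interval cannot be placed within these gaps. SLFN5 and LINC02001, the nearest named genes with more counts, were counted in both sets. SLFN5, 76.6 kb to one side, had 1240 to 2883 counts per sample in D-F. LINC02001, 30.2 kb to the other side, had 79 and 101 counts in D against 80 and 97 in A (log2 difference -0.11, SE 0.22, adjusted p = 0.708). AP2B1, an adaptor subunit of endocytosis, differed by -0.15 (SE 0.07, adjusted p = 0.113). The cause of the split was not tested.

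**Figure D3:**
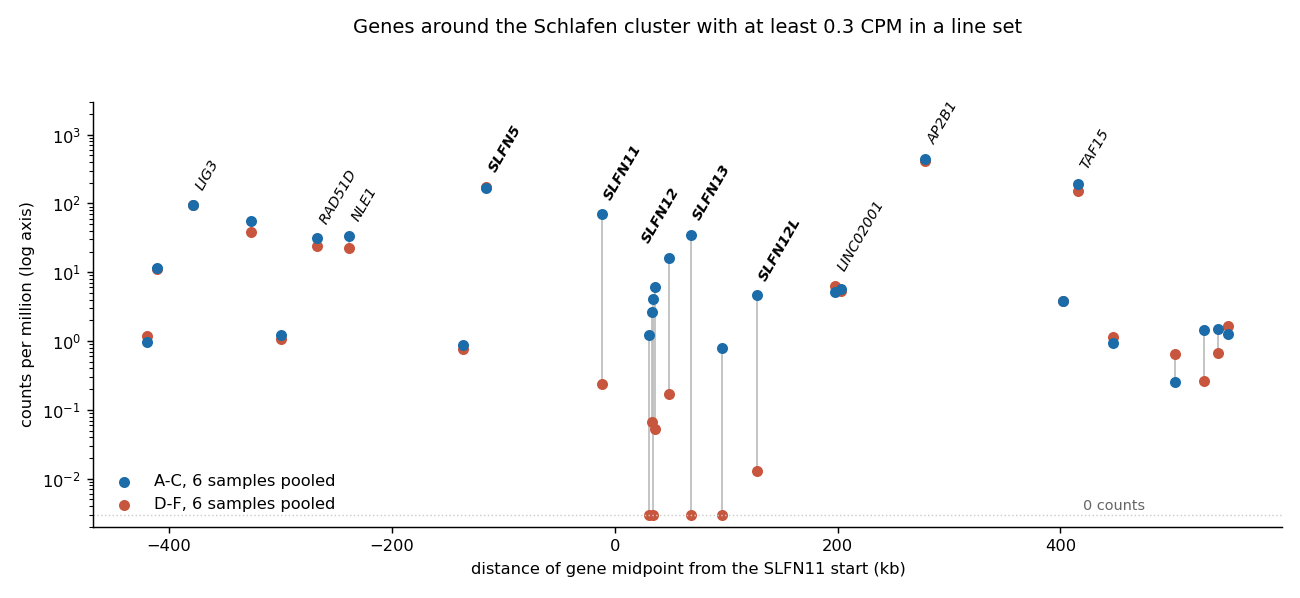
CPM (vertical axis, log scale) of the genes around the cluster with at least 0.3 CPM in a line set, against the distance of the gene midpoint from the SLFN11 start in kb, with 1 point per line set from 6 pooled samples and a dotted line for 0 counts. The points of both sets lie close together from NLE1 to SLFN5 and from LINC02001 to TAF15, and are far apart from SLFN11 to SLFN12L. Unnamed assembled loci are not drawn, among them the plus-strand locus that overlaps SLFN12L and was counted in both sets. CPM was scaled here to the library totals without TMM factors.

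Of the rows with other SLFN symbols, 1 had too few counts to compare and 2 were not called between the sets. SLFN14, just beyond SLFN12L, had 2 counts in A1, 0 in the other samples, and did not pass the filter. SLFNL1, on chromosome 1, had 0 to 12 counts per sample and a log2 difference between D and A of 1.71 (SE 1.16, adjusted p = 0.259). Its antisense row SLFNL1-AS1 had 136 to 252 counts per sample and a difference of -0.36 (SE 0.16, adjusted p = 0.0951). Neither was called by edgeR or DESeq2 in any contrast, and 0 of their p-values were under 0.05 before adjustment.

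The type I interferon signal chain responded in both line sets. Of 10 type I interferon signalling genes tested, the same 4, STAT2, IRF9 and USP18 among them, rose at both doses in both sets, and 0 fell. Of all tested genes, 1.41% were called higher at 200 ng/ml in A-C, 1.67% in D-F, 0.632% at 20 ng/ml in A-C and 1.2% in D-F. The median log2 change of the 10 at 200 ng/ml was -0.05 in A-C and 0.945 in D-F, against -0.00275 and 0 over all tested genes. STAT2, a signal transducer of the receptor, went from 78.5 and 80.2 TPM in A to 255 and 278 TPM in C, and from 72.5 and 86.7 TPM in D to 321 and 346 TPM in F. Its log2 change was 1.70 (SE 0.12, adjusted p = 3.05e-05) in A-C and 1.91 (SE 0.12, adjusted p = 9.53e-06) in D-F at 200 ng/ml.

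IRF9, the DNA-binding subunit of ISGF3, rose by 2.39 (SE 0.18, adjusted p = 6.33e-05) in A-C and by 2.99 (SE 0.19, adjusted p = 1.1e-05) in D-F at 200 ng/ml on the log2 scale. It was lower in untreated D than in A by a factor of 2.29 (adjusted p = 0.000569, log2 difference -1.20), though without D2 the difference of -0.92 fell short of 2-fold. USP18, which shuts off the interferon receptor, rose from 6.78 and 8.60 TPM to 87.7 and 91.6 TPM in A-C and from 3.00 and 3.16 TPM to 88.9 and 92.6 TPM in D-F. Like SLFN5, USP18 started lower in D. At 200 ng/ml SLFN5 overlapped between the sets in CPM but not in TPM. USP18 overlapped in TPM, with a mean CPM of 122 in C and 106 in F. Its response at 200 ng/ml differed between the sets by 1.24 (SE 0.21, adjusted p = 0.0252, edgeR). This call was lost without A2, C2, D1, D2, F1 or F2 and with a replicate block, with adjusted p-values from 0.062 to 0.103, and the difference in those fits was 1.031 to 1.255.

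The feedback inhibitors SOCS1 and SOCS3 did not pass the test with IFNα in either set and were lower in untreated D than in A. At 200 ng/ml the SOCS1 log2 change (edgeR) was -0.895 (SE 0.388, adjusted p = 0.211) in A-C and 1.525 (SE 0.497, adjusted p = 0.123) in D-F. The sets differed by 2.42 in this response (SE 0.631, adjusted p = 0.092), which was not called. Mean SOCS1 was 3.31 TPM in C and 1.67 TPM in F. SOCS1 was at 4.97 and 7.63 TPM in A and 0.376 and 0.671 TPM in D (12.3-fold lower, adjusted p = 0.000163). SOCS3 was at 22.6 and 24.3 TPM in A and 4.14 and 5.62 TPM in D (5.24-fold lower, adjusted p = 2.48e-06). In all, 4 of the 10 genes (IRF9, USP18, SOCS1 and SOCS3) were called lower in D than in A and 0 higher, beside 11% of all genes called lower in this contrast. The receptor chain IFNAR2 differed by 0.06 (SE 0.25, adjusted p = 0.875) and IFNAR1 by -0.52 (SE 0.10, adjusted p = 0.00226, under the 2-fold limit).

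**Figure D4:**
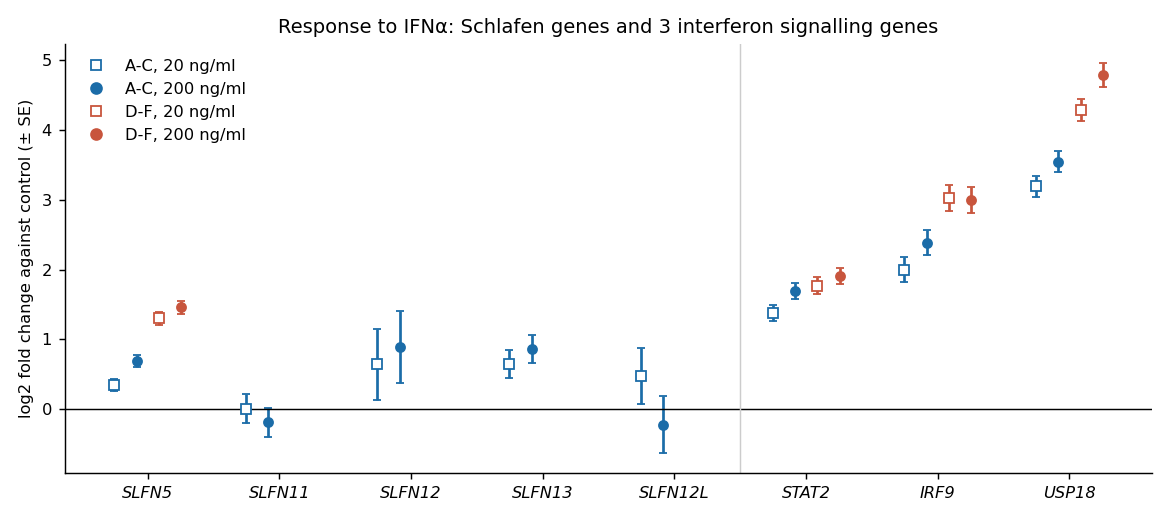
Log2 fold change against the controls of the same line set with bars for 1 SE (vertical axis) for the 5 Schlafen genes and 3 interferon signalling genes, squares for 20 and circles for 200 ng/ml. D-F values are drawn only for SLFN5 and the 3 signalling genes. SLFN11, SLFN12, SLFN13 and SLFN12L, with 18, 13, 0 and 1 summed counts in D-F, have no D-F points. SLFN5 moved by 0.35 to 1.46, and USP18 by 3.19 to 4.78.

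Of 12 genes that act with SLFN11 at stalled forks or in the replication checkpoint, none passed the call rule. All 12 were tested (the RPA subunits RPA1, RPA2 and RPA3, the helicase subunit MCM3, DHX9, the licensing factor CDT1, the ubiquitin ligase parts DDB1, CUL4A and CUL4B, the checkpoint kinases ATR and CHEK1, and the phosphatase subunit PPP1CC). In the 6 contrasts with IFNα, between 1 and 4 had an unadjusted edgeR p under 0.05, and DESeq2 called 0 in all 7 contrasts. By adjusted edgeR p alone, DDB1 passed at 200 ng/ml in A-C (-0.315, adjusted p = 0.0422) and D-F (-0.397, adjusted p = 0.0165). DDB1 also passed at 20 ng/ml in D-F (-0.377, adjusted p = 0.031). RPA2 passed at 200 ng/ml in D-F (0.397, adjusted p = 0.0294). Over all genes, 1432 passed at 200 ng/ml in A-C, and 1164 and 672 at 200 and 20 ng/ml in D-F. Between untreated D and A, 7 passed the adjusted p alone, as did 9261 of all 19944 tested genes. The differences ran from -0.78 (CUL4A, SE 0.10, adjusted p = 0.000167) to 0.72 (RPA3, SE 0.16, adjusted p = 0.00397), a pair named after their values were seen. The list's median difference was -0.22, against 0.01 over all tested genes.

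Among 11 factors tied to SLFN11 transcription or silencing, 0 were called by edgeR in the 6 contrasts with IFNα, where between 1 and 3 had an unadjusted p under 0.05 and DESeq2 called 0. Of the same factors, 3 were called higher in untreated D than in A, beside 15.7% of all genes called higher in this contrast. ETS1 and FLI1, ETS-family activators of SLFN11 in other tumors, were higher in the set where SLFN11 was at 0. ETS1 was at 11.3 and 12.2 TPM in A and 48.0 and 51.0 TPM in D (3.73-fold, adjusted p = 2.67e-05). FLI1 was at 1.01 and 1.08 TPM in A and 5.08 and 8.65 TPM in D (6.89-fold, adjusted p = 0.000253). DNMT3B, a DNA methyltransferase that sets new methylation, was at 4.36 and 5.14 TPM in A and 18.1 and 21.8 TPM in D (4.25-fold, adjusted p = 1.69e-06). EZH2, the enzyme of the repressive mark H3K27me3, differed by -0.57 (SE 0.13, adjusted p = 0.00457) and DNMT1 by -0.56 (SE 0.08, adjusted p = 0.000264), both under 2-fold. The median of the 11 was -0.32, against 0.01 over all genes. No methylation or chromatin measurement is among the files used here.

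Of the SLFN12 partners, PDE3A and PDE3B had at most 2 summed counts per letter and did not pass the filter.

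Reads were divided among many annotated transcripts of the members. SLFN11 had 13 transcripts in the deposited table, 10 of them coding, SLFN13 had 11, SLFN12 8, SLFN12L 5 and SLFN5 3. SLFN5-201, the full-length coding form with 5 exons, held 73.1% to 93.1% of SLFN5 TPM in A-C and 65.6% to 91.1% in D-F, and its own level went from 12.1 and 13.6 TPM in D to 37.7 and 39.3 TPM in F. The 2-exon coding form SLFN5-203 held 2.94% to 26.5% in the 12 samples.

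SLFN12L-201 was the main form of SLFN12L, with 67.8% to 100% of its TPM in A-C. The leading SLFN13 transcript was the coding SLFN13-209, at 35.5% to 56.2%. SLFN12-206, a coding form, was listed at 0 in both A samples and at 2.81, 3.64, 4.53 and 2.88 TPM in the B and C samples, whereas SLFN12-201 stayed between 3.88 and 5.20 TPM in all 6. The short coding form SLFN12-204 ranged from 1.79 to 10.3 TPM, the retained-intron SLFN12-208 from 1.32 to 2.17, and the coding forms SLFN12-202 and SLFN12-205 from 0.04 to 2.60 and from 0.60 to 2.48. Of the other SLFN13 transcripts, the retained-intron SLFN13-208 ranged from 0.51 to 8.93 TPM, SLFN13-205, a target of nonsense-mediated decay, from 0 to 4.69, and the coding SLFN13-201 from 0 to 3.64. The retained-intron forms SLFN12L-204 and SLFN12L-203 reached at most 0.69 and 0.49 TPM.

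The longest coding forms of SLFN11, SLFN11-201 and SLFN11-202, changed places between replicates. SLFN11-202 was at 18.6 and 5.63 TPM in A1 and A2 and at 21.5 and 0 TPM in B1 and B2. SLFN11-201 was at 2.71 and 16.0 TPM in A1 and A2 and at 0 and 20.4 TPM in B1 and B2. Their sum was 21.3, 21.7, 21.5 and 20.4 TPM in these 4 samples, 14 TPM in C1 and 23.3 TPM in C2. The sum was steady in A and B where the parts were not, and no transcript of this pair, which was chosen after its values were seen, can be ranked above the other here. The short coding forms SLFN11-213 and SLFN11-205 ranged from 2.67 to 6.71 and from 1.57 to 4.94 TPM in A-C, and the retained-intron SLFN11-209 from 1.23 to 5.09.

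**Figure D5:**
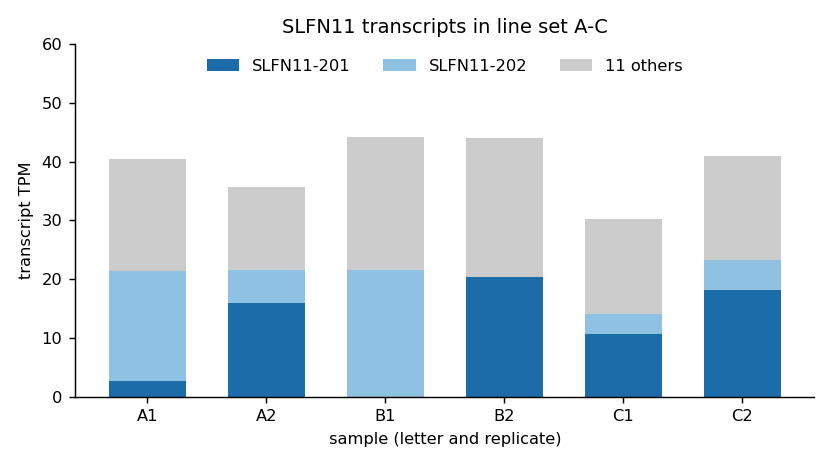
Stacked TPM (vertical axis) of SLFN11-201, SLFN11-202 and the 11 other SLFN11 transcripts in each A-C sample. The dark and light parts trade places between A1 and A2 and between B1 and B2, while their sum stays between 20.4 and 21.7 TPM in those 4 samples.

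Part of the family's sequence is shared, which limits how surely reads can be placed. Of all 31-base words in SLFN11 transcripts, 14% also occur in SLFN13, and 9.27% of SLFN13 words occur in SLFN11. For SLFN12L 8.77% of words occur in some other gene, for SLFN12 4.28% and for SLFN5 1.39%. The few D-F counts of SLFN11 and SLFN12 were not traced to unique positions.

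The genes most like each member in pattern were sought by Pearson correlation of log2 CPM over the 12 samples. For SLFN5 they were the interferon-stimulated genes OASL (r = 0.987), PARP12 (0.978), BLZF1 (0.972), NLRC5 (0.971) and IFIT3 (0.970). Within the sets OASL kept r = 0.953 in A-C and 0.999 in D-F. OASL ranged from 10.8 to 73.2 TPM in A-C and from 3.23 to 104 TPM in D-F. For SLFN11 they were FAT1 (r = 0.9983), CD74 (0.9979), CCL2 (0.9973), KRT14 (0.9970) and CDH5 (0.9960).

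The SLFN11 values split by line set, and so do the genes most like it. CD74, the invariant chain of MHC class II, was at 235 to 321 TPM in A-C and 0 to 1.23 TPM in D-F. CCL2, a chemokine also on chromosome 17, was at 1110 to 1900 TPM and 0 to 0.637 TPM. Within A-C the correlations with SLFN11 ran from -0.129 for KRT14 to 0.893 for CDH5 over 6 samples. Within D-F, where SLFN11 had 0 to 8 counts per sample, they ran from 0.304 for CDH5 to 0.968 for FAT1. These are descriptions over samples that share a line.

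The label of squamous carcinoma cells was compared with marker genes. The 8 squamous markers summed to 2730 to 3350 TPM in A-C and 1190 to 1490 TPM in D-F, and KRT14, a basal keratin, was the exception at 0 to 0.254 TPM in D-F against 41.9 to 49.2 in A-C. The leukocyte list summed to 1.37 to 3.12 TPM in A-C and 0.0891 to 1.51 in D-F. Its defining markers PTPRC and CD3E were at or near 0 in all samples, with 0.0425 TPM the highest, while the myeloid markers CD14 and ITGAM reached 2.29 and 1.05 TPM. ITGAM was at 0.137 to 1.05 TPM in A-C, at 0 and 0.0466 TPM in D and at 0 in E and F. It was called lower in untreated D than in A (edgeR, adjusted p = 0.00918). It passed the filter on low counts through A-C alone, so it could only be called lower. It moved with the split between the sets, and its part in that split was not tested. Fibroblast markers summed to 5.41 to 15.2 TPM in A-C and 8.97 to 15.3 in D-F. The endothelial list summed to 15.3 to 21.7 TPM in A-C and 0.1 to 0.732 in D-F, nearly all of it CDH5, while PECAM1 and VWF stayed at most 0.576 and 0.414 TPM. CDH5 thus moved with SLFN11 between the sets, and its part in the result was not tested.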

How the data were processed

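The members and gene lists were chosen with earlier results of these data known. Per the labels, total RNA from 2 HNSCC lines was depleted of rRNA and made into stranded libraries. The submitters' processing notes name Trimmomatic 0.36, HISAT2 2.1.0, StringTie 1.3.3b and GRCh38.p10, without roles. The authors deposited an estimated count per gene and transcript, in whole numbers, and TPM and FPKM values scaled by length and depth. FPKM was not used. The transcripts of each gene summed to its gene count.

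TPM was used as deposited for levels. Fold changes were fitted to the estimated counts in R 4.3.3 by edgeR 4.0.16 (TMM, filterByExpr, quasi-likelihood test, Benjamini-Hochberg over 19944 genes) in 1 fit of 6 groups of letter. The SE was the log2 change divided by the root of F. Calls needed a 2-fold change and an adjusted p of at most 0.05. Ratios for sparse genes used pooled counts with exact 95% intervals, or a floor of 3 counts per library. The floor was 0.194 to 0.307 CPM, with counts scaled to the library total adjusted by TMM factors. Alternatives were DESeq2 1.42.0, its size factors, no filter, separate fits, a replicate block, each sample left out, and TPM with pseudocounts of 0.1 and 1. Python 3.11.15, pandas 2.3.3, numpy 2.4.6, scipy 1.17.1 and matplotlib 3.10.9 were used, and the fits were tested on simulated data.

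Replicates of a letter differed beyond sampling noise (chi-square 11.7 to 16.4 per degree of freedom). The labels do not say whether they were separate cultures, so p-values measure only the spread between these samples, which may be technical. Transcript names and types came from GENCODE release 29, promoters from RefSeq. From each list, the genes called in any contrast are named, with at most 6 per list. The 5 genes with the highest correlation are named for SLFN5 and for SLFN11, as are transcripts holding at least 10% of a member's TPM in a letter. The values of some genes of these lists are not reported here.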

Additional observations from a re-analysis of the deposited data

Results flagged for a closer look

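The response of USP18 to 200 ng/ml IFNα differed between the line sets, by 1.241 on the log2 scale (D-F minus A-C, SE 0.21, edgeR quasi-likelihood test, adjusted p = 0.0252), with a rise of 4.78 in D-F and 3.54 in A-C. All 4 treated samples at this dose lay above the controls of their set. The call was lost in 7 of the 16 alternatives run, without A2, C2, D1, D2, F1 or F2 (adjusted p = 0.0633 to 0.103) and with a replicate block (adjusted p = 0.062), while the difference stayed between 1.031 and 1.421 in all of them.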

How the results depend on the processing

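No called value changed sign under any alternative run. On the log2(TPM + 0.1) and log2(TPM + 1) scales SLFN5 changed by 0.575 and 0.559 in A-C and by 1.31 and 1.27 in D-F at 200 ng/ml, and by 0.151 and 0.146 in A-C at 20 ng/ml. The SLFN5 difference between the sets at 20 ng/ml was then 1.203 and 1.167, its untreated difference -0.493 and -0.473, and the SLFN11 change at 20 ng/ml in A-C 0.213 and 0.208. With 1 sample left out at a time, SLFN5 ranged from 0.593 to 0.789 and 1.385 to 1.519 at 200 ng/ml, from 0.254 to 0.45 and 1.227 to 1.371 at 20 ng/ml (A-C and D-F), from 0.667 to 0.863 and 0.849 to 1.045 for the differences at 200 and 20 ng/ml, and from -0.82 to -0.624 untreated. SLFN11 in A-C ranged from -0.532 to 0.084 at 200 ng/ml (-0.532 without C2) and from -0.043 to 0.059 at 20 ng/ml, and its lower bound for A over D was 377 to 386. By adjusted p alone, 7 fork genes and 8 silencing factors passed between D and A, in place of 0 and 3, beside 9261 of all 19944 tested genes.

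Deviations from the letter means correlated between letters at -0.05 to 0.066 over 13034 genes. No shift shared by replicate number was seen, which does not settle whether replicate numbers pair the samples. With the replicate block, 69 genes differed in their response at 200 ng/ml in place of 199 and 30 in place of 46 at 20 ng/ml, SLFN11 and USP18 among those lost. Genes called at 200 ng/ml in A-C numbered 434, but 261 in separate fits, 240 without A2 and 287 without C2. DESeq2 called 323 and 165 genes for the differences at 200 and 20 ng/ml, and 231 in place of 142 at 20 ng/ml in A-C. With 1 sample left out, the differences counted 74 to 339 genes at 200 ng/ml. By adjusted p alone the 7 counts were 1432 and 1164 (200 ng/ml, A-C and D-F), 221 and 672 (20 ng/ml), 375 and 74 (differences), and 9261 (D against A, in place of 5310). The cause of these shifts was not tested. Depth limits SLFN11, SLFN12, SLFN12L and SLFN13 in D-F, where 3 counts equal 0.194 to 0.307 CPM.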
